A study of Saccharomyces cerevisiae with 21 samples.

Results

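The group described here is irradiated budding yeast (Saccharomyces cerevisiae, laboratory strain S288C), set against unirradiated yeast of the same strain. It received 20.8 Gy in a mixed reactor field, of whose dose thermal neutrons were a minor part. Its members are the 3 arrays whose titles name thermal neutrons, out of 12 arrays in the series, and they supply 6 of the 21 columns of values because each array was scanned at a high and at a low laser power. The other arrays belong to gamma rays (17 Gy), carbon ions (25 Gy) and fast neutrons (20.3 Gy), with 3 arrays each. By the labels, all cells came from 50 ml cultures at an optical density of 1, were washed in ice-cold 0.9% saline and were afterwards grown for 40 min in fresh rich medium (YPD) at 25 C before polyA RNA was taken. The thermal neutron cells lay in 2 ml of saline for 20 h, kept cold and resting, in cuvettes at a reactor's heavy water facility. Their controls lay as long and as cold in tissue culture flasks, so the vessel differed between the channels along with the radiation. The gamma ray cells were exposed over 20.5 h in 2 ml, the carbon ion cells over 10 min in 5 ml and the fast neutron cells over 19 h in 2 ml.

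The dose of the thermal neutron group was mixed. The labels give a global dose rate of 17 mGy/min, of which thermal neutrons made up 1.0 to 2.0 mGy/min, that is 5.88% to 11.8%. At that rate 20 h come to 20.4 Gy, against the 20.8 Gy in the titles. The growth text of the same samples speaks of heavy ion radiation where the titles, the source names and the treatment text name thermal neutrons, and the titles were followed. The values below are therefore those of a mixed field and a vessel, and thermal neutrons cannot be told apart from the rest of it.

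Each array held labelled cDNA of irradiated cells (Cy5) beside that of control cells (Cy3), and each value is a log2 ratio, so 1 stands for a doubling and -1 for a halving in irradiated cells. The labels do not state which channel is on top of the deposited ratio. Irradiated over control is the likely reading from the channel order, and HUG1, RNR2 and RNR4, genes induced by DNA damage in yeast, were positive on the 3 arrays under it. The dyes ran the same way on every array, which leaves any dye effect of a gene inside its ratio. Ratios carry no level, so levels of different genes are not compared. The design text says that the samples were collected independently; the number of arrays limits the precision.

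Yeast answers misfolded protein by making chaperones: Hsp70 proteins with their J-domain partners bind unfolded chains, Hsp90 matures its clients, small heat shock proteins hold aggregates in a form that the disaggregase can take apart, and the proteasome degrades what carries a ubiquitin chain. Many other stresses raise a shared set of genes for trehalose, glycogen and redox enzymes, the environmental stress response, while genes that build ribosomes fall. DNA damage in yeast activates checkpoint kinases that raise ribonucleotide reductase, the enzyme that makes deoxyribonucleotides. Cells moved to fresh medium normally turn on glucose transport, ribosome building and the G1 cyclins that start a new division.

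After the thermal neutron exposure, most genes of the Hsp70 and Hsp90 lists and of the disaggregase and small heat shock list, all tested proteasome subunit genes, and most general stress and peroxiredoxin genes were higher than in control cells, by up to 28.6-fold for SSA4. Most hexose transporter, zinc, amino acid permease, fatty acid and ergosterol genes, and part of the G1 and ribosome assembly genes, were lower, by up to 5.63-fold for OLE1. Of 5379 genes with a named probe, 5301 had a value on the 3 thermal neutron arrays and were tested against a ratio of 1 with limma. At a Benjamini-Hochberg adjusted p under 0.05, 2185 genes passed (41.2%), 1056 higher (19.9%) and 1129 lower (21.3%). Of these, 336 changed at least 2-fold, 213 higher and 123 lower, and 16 were at least 4-fold higher against 6 at least 4-fold lower. The median over the genes tested was -0.04. The 3 arrays gave the same sign for 2165 of the 2185 passing genes, and for 3647 of the 5301 tested (68.8%). Arrays 1 and 2 correlated across genes with r = 0.86, while array 3 correlated with them with r = 0.74 in both cases. In 13 of the 20 passing genes without a shared sign, array 3 alone was opposite, against 3 for array 1 and 4 for array 2. Without arrays 1, 2 and 3 the test called 1497, 1469 and 1455 genes. Of these 749, 731 and 741 were higher and 748, 738 and 714 lower. Calls thus fell over all genes with any array left out, and a smaller count in a list is not by itself particular to that list. In the account below the 3 values of a gene are arrays 1, 2 and 3, means carry the SD over the 3 arrays, and results that rest on 1 array are given without it.

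**Figure D1:**
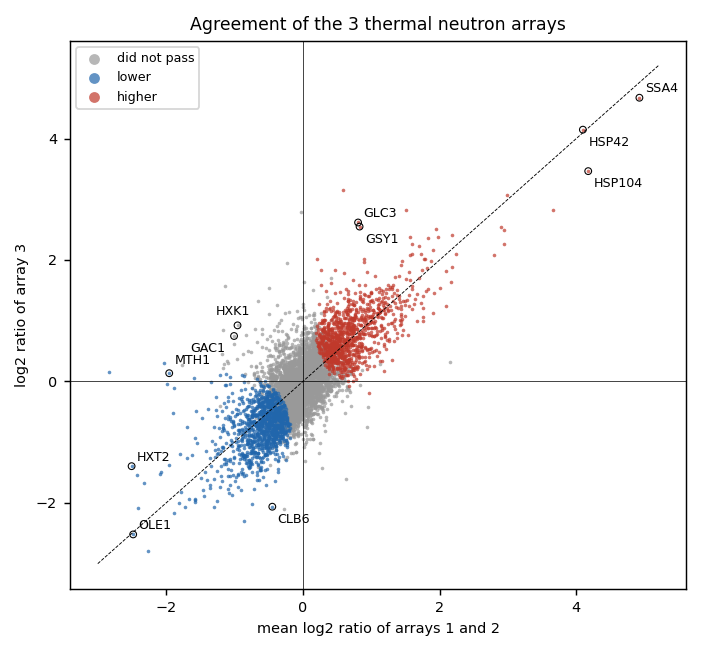
Log2 ratio of each tested gene on array 3 (vertical axis) against its mean log2 ratio on arrays 1 and 2 (horizontal axis), thermal neutrons over control; the dashed line marks equal values and colours mark the limma call. SSA4, HSP42, HSP104 and OLE1 lie near the line, while HXT2 and MTH1 lie above it, GLC3 and GSY1 are higher on array 3, and GAC1 and HXK1 have opposite signs on array 3.

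The largest increases were in chaperone genes. SSA4 (YER103W), the Hsp70 of the cytosol that heat induces, had log2 ratios of 4.87, 4.98 and 4.67 on the 3 arrays. HSP42 (YDR171W), a small heat shock protein, stood at 4.20, 3.99 and 4.15. HSP104 (YLL026W), the disaggregase, stood at 4.25, 4.10 and 3.46. These were the 3 highest means of the 2165 genes that passed with a shared sign, 28.6-fold, 17.3-fold and 15.3-fold above control (adjusted p = 3.16e-10, 3.28e-09 and 6.37e-07). BTN2 (YGR142W), which sorts misfolded protein to storage sites, read 3.84, 3.49 and 2.82. Its relative CUR1 was at 1.67, 1.60 and 1.36. The other small heat shock gene, HSP26 (YBR072W), spread more widely over the arrays, at 3.73, 2.24 and 3.07, and still passed (adjusted p = 1.01e-05). In the list of the disaggregase, small heat shock and sorting proteins 7 of 9 tested members rose and 0 fell, against 19.9% higher over all genes. Their median was 1.54. In low-power scans alone 4 of them had values, and all 4 rose.

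Among Hsp70 genes and their exchange factors, 6 of 9 rose and 2 fell. SSA3, a second stress-induced Hsp70, gave 2.44, 1.90 and 1.63. SSE2 and FES1 make Hsp70 release its nucleotide. SSE2 was at 1.30, 1.38 and 1.46. FES1 stood at 1.70, 1.63 and 1.43. All of these arrays lay above the 2-fold line. SIS1 (YNL007C), the essential J-domain partner of Hsp70, was at 2.17, 2.19 and 1.89 (4.23-fold, adjusted p = 2.62e-06). YDJ1, the other main J-domain protein of the cytosol, read 0.61, 0.92 and 0.44. The J-domain list rose in 4 of 12 and fell in 1, with a median of 0.17, so its members moved unevenly. SSZ1, SSB2 and ZUO1, which act at the ribosome, were lower. SSZ1 was at -0.45, -0.58 and -1.15 and fell (adjusted p = 0.00396). SSB2, whose near-identical partner SSB1 can share its signal, was at -0.42, -0.33 and -0.86. ZUO1, the J-domain partner of SSZ1, gave 0.02, -0.65 and -0.71. Both passed as lower (adjusted p = 0.00671 and 0.0377), but not with every array left out: SSB2 had an adjusted p of 0.0562 without array 3, and ZUO1 of 0.204 without array 2 and 0.224 without array 3. SSA2, the constitutive Hsp70 with a near-identical copy in SSA1, was at 0.66, 0.89 and 0.05 (adjusted p = 0.0242, but 0.122 without array 1 and 0.19 without array 2).

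Most of the Hsp90 machine rose. HSP82 (YPL240C), the inducible Hsp90, was at 1.77, 1.42 and 1.57. HSC82 (YMR186W), the constitutive one, was at 1.28, 1.05 and 1.04; the genes are closely alike in sequence, so their signals may be shared. STI1, which passes clients from Hsp70 to Hsp90, stood at 1.89, 1.77 and 1.52. AHA1, which speeds up Hsp90's ATPase, read 1.44, 1.23 and 0.92. CPR6, a cyclophilin bound to Hsp90, was at 1.84, 1.68 and 1.00. Of 14 members, 10 rose and 2 fell, with a median of 0.91. The members that fell were CPR7, a second cyclophilin, at -0.51 ± 0.36, and PPT1, a phosphatase, at -0.69 ± 0.28. CPR7 had an adjusted p of 0.116 without array 3, and PPT1 of 0.0517 without array 2 and 0.144 without array 3, so 2, 1 and 0 members fell without arrays 1, 2 and 3, while 10, 10 and 10 rose.

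Of the mitochondrial chaperones and proteases 7 of 14 rose. HSP78 (YDR258C), the disaggregase of the matrix, gave 3.15, 2.64 and 2.54. MDJ1, the J-domain partner of the matrix Hsp70, was at 1.96, 1.89 and 1.45. PIM1, the Lon protease that degrades damaged matrix protein, stood at 1.12, 1.28 and 1.13. HSP10, the lid of the chaperonin, read 0.94, 0.96 and 1.20. SSC1, the main Hsp70 of the matrix, stood at 0.62, 0.36 and 0.01 and did not pass (adjusted p = 0.0754, but 0.0355 without array 3). It was lowest on array 3. Without arrays 1, 2 and 3 the list had 4, 6 and 6 members higher. The cytosolic chaperonin and prefoldin changed less: 5 of 13 rose, by at most 0.75 (2, 2 and 4 without arrays 1, 2 and 3). Folding genes of the endoplasmic reticulum had 6 higher and 5 lower of 20, with a median of 0.06. These shares, 30.0% and 25.0%, stood beside 19.9% and 21.3% over all genes. Without arrays 1, 2 and 3 the list had 2, 3 and 4 higher and 4, 4 and 3 lower. There KAR2, the Hsp70 of that compartment, was at 0.89, 0.92 and 0.57 and rose. IRE1, the sensor of unfolded protein, was at -0.97, -0.97 and -0.92. HAC1, the factor it activates, gave -0.26, -0.73 and -0.94. Both fell.

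**Figure D2:**
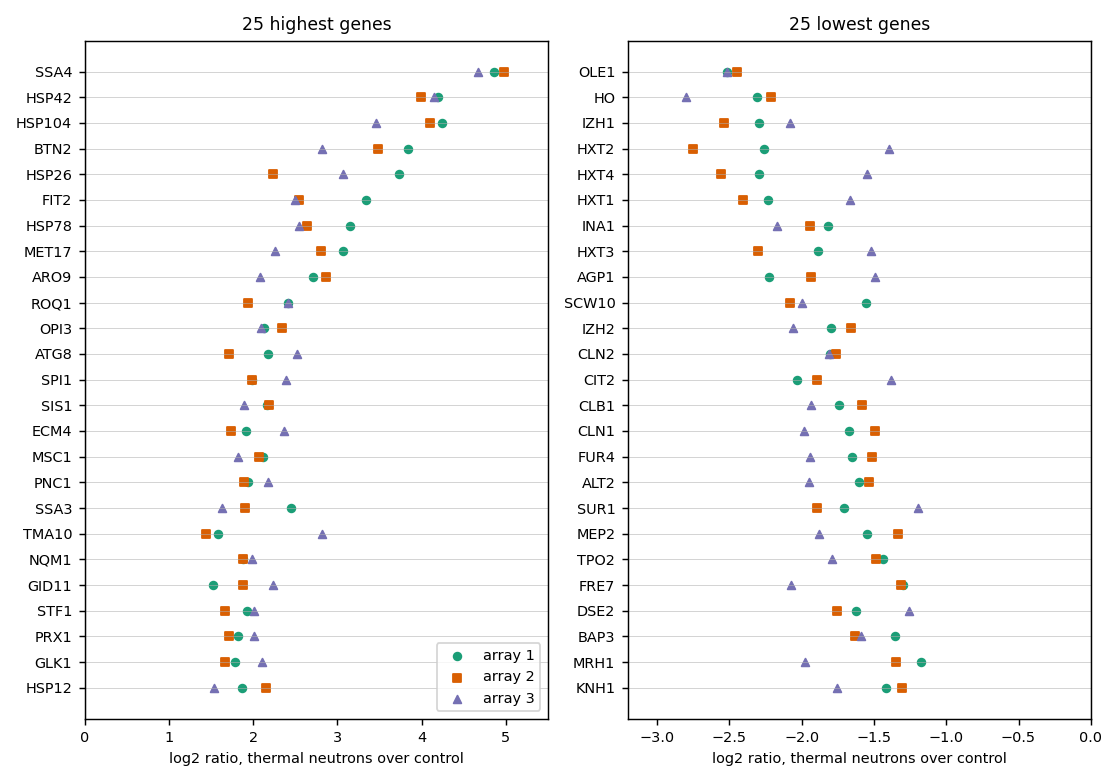
Log2 ratios of thermal neutrons over control on each of the 3 arrays (one marker per array) for the 25 highest and the 25 lowest means among genes that passed with the same sign on the 3 arrays. The lowest of the 9 values of SSA4, HSP42 and HSP104 is 3.46; among the lowest, the hexose transporter genes HXT1 to HXT4 are nearest to 0 on array 3.

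Every measured subunit gene of the proteasome rose. In the core particle, which cuts proteins, 14 of 14 passed as higher, with means between 0.78 and 1.34 and a median of 1.05. In the regulatory particle, which binds and unfolds ubiquitinated protein, it was 19 of 19, between 0.47 and 1.42 with a median of 0.99. The background was 19.9%. The medians on the 3 arrays were 1.15, 0.93 and 1.02 for the core and 0.93, 1.02 and 0.98 for the regulatory particle, so each array showed the shift. PRE6, a ring subunit of the core, was at 1.38, 1.23 and 1.41. PUP1, a catalytic subunit, stood at 1.17, 1.00 and 1.13. RPT2 and RPT1 are ATPases of the base. RPT2 read 1.62, 1.38 and 1.25. RPT1 was at 1.05, 1.35 and 1.31. RPN2, the scaffold of the base, gave 0.67, 0.64 and 0.11. RPN8, of the lid, was at 0.63, 0.68 and 0.31. Both had their lowest value on array 3, and these were the subunits whose call depended on 1 array: RPN2 had an adjusted p of 0.134 without array 1 and 0.124 without array 2, and RPN8 of 0.173, 0.189 and 0.0781 without arrays 1, 2 and 3.

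Factors that build or modify the proteasome moved with it. HUL5, a ubiquitin ligase bound to the particle, stood at 1.25, 1.37 and 1.53. BLM10, an activator that caps the core, read 1.38, 1.20 and 0.97. UMP1, an assembly chaperone, was at 1.38, 0.83 and 1.20. Of 13 such genes 10 rose and 0 fell. RPN4, the transcription factor that drives proteasome genes in yeast, was at 0.08, 0.11 and -0.30 and did not pass (adjusted p = 0.852). HSM3, an assembly chaperone of the base, was at 0.09, 0.03 and -0.76, near 0 on arrays 1 and 2 and negative on array 3.

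**Figure D3:**
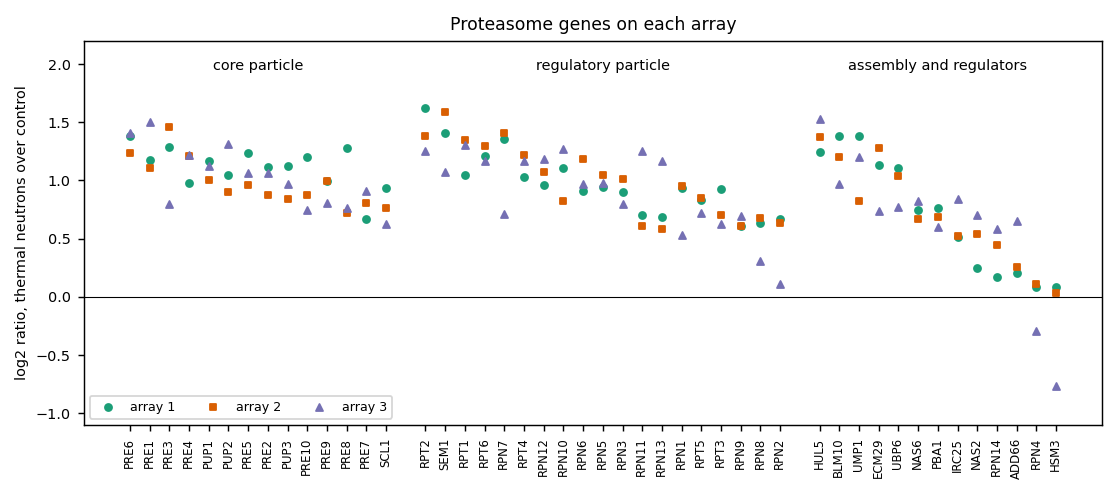
Log2 ratio of thermal neutrons over control (vertical axis) for each tested proteasome gene on each of the 3 arrays, grouped into core particle, regulatory particle, and assembly factors and regulators, and ordered by mean within each group. All values of the core and regulatory particle lie above 0, RPN2 on array 3 being the lowest, while RPN4 and HSM3 lie below 0 on array 3.

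Of 23 genes that attach or handle ubiquitin, 17 rose and 2 fell, with a median of 0.73. UBI4, which codes for a chain of ubiquitin units and supplies it under stress, gave 1.53, 1.36 and 1.03. The conjugating enzymes UBC5 and UBC4 mark abnormal protein. UBC5 was at 1.26, 1.08 and 1.50. UBC4 stood at 1.00, 0.83 and 0.55. UBC8, which acts in the degradation of gluconeogenic enzymes, read 1.51, 1.39 and 1.99. Each was above 0 on each array. CDC48, the ATPase that extracts ubiquitinated protein, was at 0.97, 0.96 and 0.40. Its cofactor NPL4 gave 0.97, 1.00 and 1.07. UFD1, the other cofactor, was at 0.56, 0.55 and 0.99. The members that fell were ligases. SAN1, for misfolded protein in the nucleus, stood at -0.60, -0.58 and -0.81. RSP5, which marks plasma membrane proteins for removal, read -0.46, -0.58 and -0.89. ROQ1, which redirects a ubiquitin ligase to misfolded protein under stress, was among the highest genes, at 2.42, 1.93 and 2.42 (4.78-fold, adjusted p = 5.91e-06).

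Autophagy, which delivers cytoplasm to the vacuole, showed a rise in some members only. ATG8 (YBL078C), the ubiquitin-like protein that builds the autophagosome membrane, was at 2.17, 1.71 and 2.52 (4.39-fold, adjusted p = 1.34e-05). ATG1, the kinase that starts the process, was at 1.06, 1.26 and 1.44. Its partner ATG13 gave 0.95, 0.82 and 0.71. ATG19, a cargo receptor, was at 1.28, 1.40 and 1.29. ATG34, its relative, stood at 1.10, 1.09 and 1.11. These rose on every array. Of 37 members 14 rose and 4 fell, and the median was 0.09, close to that of all genes. ATG12, the other ubiquitin-like protein of the pathway, stood at -0.63, -0.63 and -0.53 and fell (adjusted p = 0.0155, but 0.073, 0.0728 and 0.0557 without arrays 1, 2 and 3). With any array left out 10, 10 and 10 members rose and 0, 0 and 0 fell (arrays 1, 2 and 3).

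Of 29 general stress genes, 24 rose and 1 fell, with a median of 1.12. PNC1 (YGL037C), the nicotinamidase, read 1.94, 1.88 and 2.17. SPI1 (YER150W), a cell wall protein, was at 1.98, 1.98 and 2.38. HSP12 (YFL014W), a small membrane-associated stress protein, gave 1.86, 2.15 and 1.53. All 3 rose, by 3.99-fold, 4.33-fold and 3.6-fold (adjusted p = 1.45e-06, 1.34e-05 and 1.14e-05). GRE3, an aldose reductase, was at 1.46, 1.41 and 1.24. GAD1, glutamate decarboxylase, stood at 1.25, 1.46 and 1.23. GPD1, which makes glycerol phosphate, read 1.31, 1.02 and 1.04. TMA10, a ribosome-associated protein, was higher on array 3 than on the others (1.58, 1.44 and 2.82). YGP1, a secreted glycoprotein, was the exception at -0.63, -0.92 and -1.41 and fell (adjusted p = 0.000445). MSN2 and MSN4 are the factors that drive many of these genes. MSN2 was at -0.14, -0.33 and -0.58. MSN4 gave -0.87, -0.86 and 0.09. Both passed as lower (adjusted p = 0.0471 and 0.0282), though MSN2 had an adjusted p of 0.0532, 0.135 and 0.254 without arrays 1, 2 and 3, and MSN4 of 0.195 without array 1 and 0.19 without array 2. XBP1, a stress-induced repressor, was at 1.00, 0.66 and 1.40. HSF1, the heat shock factor, stood at 0.58, 0.53 and 0.95. Both rose.

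Trehalose, a sugar that protects protein under stress, had both its synthesis and its breakdown genes higher, 6 of 7. TPS1, its synthase, read 0.86, 0.85 and 0.93. TSL1, a regulatory subunit, was at 1.25, 1.61 and 1.20. NTH1, the neutral trehalase, gave 0.97, 1.21 and 0.42. ATH1, the acid trehalase, was at 0.85, 0.95 and 1.02. All 4 passed with each array left out. Glycogen genes were less uniform. GPH1, which breaks glycogen down, stood at 1.19, 1.33 and 0.66. GSY1, glycogen synthase, read 0.80, 0.86 and 2.55. GLC3, the branching enzyme, was at 0.90, 0.72 and 2.62. Both passed (adjusted p = 0.0276 and 0.0204), were far higher on array 3, and had an adjusted p of 0.25 without array 3 (GSY1) and 0.208 without array 3 (GLC3). GLG1, a primer protein of glycogen, gave -1.25, -1.08 and 0.85. GAC1, which targets a phosphatase to glycogen synthase, was at -0.87, -1.14 and 0.75. Neither passed, and in both the sign of array 3 was opposite; GLG1 had an adjusted p of 0.017 without array 3. In the glycogen list 7 of 15 rose and 0 fell, with a median of 0.40. Without arrays 1, 2 and 3 the list had 5, 6 and 2 higher and 0, 0 and 2 lower.

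Peroxiredoxins, which remove peroxide, and the thioredoxin system that recharges them rose in 12 of 13 members, with a median of 0.77. PRX1 (YBL064C), the mitochondrial peroxiredoxin, stood at 1.82, 1.72 and 2.01. AHP1, a cytosolic one, read 1.72, 1.25 and 1.32. TRX2, the stress-induced thioredoxin, was at 1.50, 1.14 and 1.59. MXR1 and MXR2 repair oxidised methionine. MXR1 gave 1.30, 1.08 and 1.18. MXR2 was at 1.08, 1.34 and 1.46. TSA1, the most abundant peroxiredoxin of the cytosol, was lower in the list, at 0.77, 0.57 and 0.38. SRX1, which reactivates peroxiredoxin, spread more, with 2.02, 0.45 and 0.82, and was highest on array 1. The member that did not pass was TRR1, thioredoxin reductase, at 0.75, -0.27 and 0.23. In the list of superoxide dismutases, catalases and peroxidases 8 of 13 rose and 2 fell. SOD1, the copper and zinc dismutase, stood at 0.93, 0.56 and 0.93. CTT1, the cytosolic catalase, read 0.47, 0.84 and 0.67. CTA1, the peroxisomal catalase, was at -0.36, -0.86 and -0.64. The first pair rose and CTA1 fell. Of the transcription factors of oxidative stress, YAP1 was at 0.68, 0.65 and 0.43 and rose. SKN7, the other one, was at -1.20, -1.37 and -1.13 and fell.

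The glutathione system rose in 9 of 17 and fell in 1. ECM4 (YKR076W), a glutathione transferase, gave 1.92, 1.74 and 2.37. GTT1, another, was at 1.33, 1.08 and 0.78. GRX1, a glutaredoxin, stood at 1.13, 1.16 and 1.06. GRX3 and GRX4, related glutaredoxins that signal iron status, parted. GRX3 read 0.77, 1.04 and 0.93. GRX4 was at -0.94, -0.91 and -0.52. Both passed, in opposite directions (adjusted p = 0.000221 and 0.00052). ZWF1, which makes NADPH for these enzymes, was at 1.07, 0.59 and 0.76 and rose.

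Of the DNA damage genes, the small subunits of ribonucleotide reductase, the single-strand binding complex and some glycosylase and tolerance genes were higher. Most repair genes did not pass, as was so for 3116 of the 5301 genes tested. RNR4 (YGR180C) and RNR2 are small subunits of ribonucleotide reductase. RNR4 gave 1.77, 1.71 and 1.84. RNR2 was at 1.32, 1.54 and 1.10. HUG1, an inhibitor of the enzyme, stood at 1.63, 1.52 and 1.66. As these 3 genes helped to read the direction of the ratio, their sign is no separate result; their sizes were 3.42-fold, 2.5-fold and 3.04-fold. The large subunits did not pass on the 3 arrays. RNR3, the damage-induced one, was at 1.07, 0.85 and -0.42 (adjusted p = 0.162, but 0.0174 without array 3). RNR1, the main one, was at 0.06, 0.22 and -0.88 (adjusted p = 0.489). In both, array 3 was negative and the other arrays positive. RFX1, the repressor of these genes, was at 1.35, 0.49 and 0.89 and rose. Of the 9 genes of the enzyme and its regulators 4 rose and 0 fell. High-power scans alone held 7 of these genes, of which 2 rose, and low-power scans alone 7, of which 3 rose.

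Of 18 other genes induced by damage, 9 rose and 1 fell, with a median of 0.49. MAG1 (YER142C), a DNA glycosylase, read 1.60, 1.29 and 1.92. DDI1 (YER143W), a proteasome shuttle factor transcribed from the same intergenic region, was at 1.56, 1.58 and 2.09. DDR48, a stress-induced protein, gave 1.57, 1.24 and 1.40. PHR1, the photolyase, was at 0.58, 0.90 and 1.67. RAD54, which drives strand exchange in recombination, stood at 0.98, 1.04 and 1.08. All of these rose. Each subunit of RPA, the complex that coats single-stranded DNA, rose. RFA1 read 1.73, 1.51 and 1.28. RFA2 was at 1.27, 0.87 and 0.52. RFA3 gave 1.12, 1.12 and 1.13. Of the checkpoint kinases, RAD53 was at 1.06, 1.02 and 0.74 and rose. CHK1, which holds back anaphase, was at -0.69, -0.66 and -0.68 and fell. DUN1, which acts below RAD53, was at 0.12, 0.16 and 0.31 and did not pass (adjusted p = 0.248). PDS1, the securin that this checkpoint protects, was at -0.93, -0.57 and -1.18 and fell. UBC13 and MMS2, of damage tolerance, form 1 ubiquitin-conjugating enzyme. UBC13 was at 1.02, 1.20 and 1.48. MMS2 stood at 1.02, 0.95 and 1.22. Both rose.

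Most repair genes beyond these did not pass, as for all genes, of which 19.9% were higher and 21.3% lower. Double-strand break repair had 4 higher and 4 lower of 23 (17.4% each), with a median of 0.07. Without arrays 1, 2 and 3 it had 4, 3 and 2 higher and 1, 1 and 0 lower. RAD59, an annealing factor, read 0.70, 1.02 and 0.84. RAD52, the central recombination protein, was at 0.52, 0.29 and 0.60 (adjusted p = 0.00979, but 0.0571 without array 1 and 0.0597 without array 3). Excision and mismatch repair had 6 higher and 1 lower of 24 (25.0% and 4.17%). RAD23, which binds damaged sites and ubiquitinated protein, was at 0.89, 0.70 and 0.74 and rose. RAD3, a helicase of excision repair, was at -0.60, -0.55 and -0.43 and fell. DNA replication had 1 higher and 6 lower of 37 (2.70% and 16.2%). Without arrays 1, 2 and 3 it had 3, 4 and 2 lower. PSF3 and SLD5, subunits of the GINS complex at the replication fork, fell. PSF3 was at -0.74, -0.77 and -1.05. SLD5 gave -0.63, -0.90 and -1.15. MEC1 and TEL1 lacked a value on at least 1 array and were not tested.

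Sugar transport fell. HXT1 and HXT3 are low-affinity glucose transporters. HXT1 was at -2.23, -2.40 and -1.67. HXT3 stood at -1.88, -2.30 and -1.52. HXT2 (YMR011W) and HXT4 (YHR092C) work at lower glucose. HXT2 read -2.26, -2.75 and -1.40. HXT4 was at -2.30, -2.56 and -1.54. HXT6 and HXT7 are high-affinity transporters that are near-identical and may share signal. HXT6 gave -1.65, -1.75 and -0.75. HXT7 was at -1.53, -1.61 and -0.49. In each of these 6 genes array 3 was nearest to 0, yet all arrays were negative, and each gene passed without any 1 array. HXT5 was at -1.15, -1.23 and -0.48 (adjusted p = 0.00664, but 0.0507 without array 1 and 0.0555 without array 2). These 7 transporters, HXT1 to HXT7, listed here as the glucose-grown transporters, all fell, with a median of -1.90, where 21.3% of all genes were lower. In the high-power scans alone 2 of these genes had a value on each array, and both fell; the other 5 rest on low-power scans for at least 1 array. Of the other hexose transporters 6 of 10 fell and 1 rose (3, 2 and 6 lower without arrays 1, 2 and 3). Several of these are near-identical to each other.

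Genes for other sugars fell with them. SUC2 (YIL162W), the secreted invertase, stood at -1.05, -1.25 and -1.28. MAL33, a maltose activator, read -1.25, -1.26 and -0.57. The maltose permease MAL31 was at -1.97, -1.82 and -0.51. The maltases MAL32 and MAL12 are near-identical. MAL32 gave -1.17, -1.62 and -0.45. MAL12 was at -1.42, -0.99 and 0.11. These were weaker on array 3, and their adjusted p of 0.00757, 0.00784 and 0.0207 became 0.0675 without array 1 and 0.058 without array 2 (MAL31), 0.0757 without array 2 (MAL32) and 0.192 without array 1 and 0.117 without array 2 (MAL12). Of this list 7 of 10 fell, with 3, 3 and 6 without arrays 1, 2 and 3, and SUC2 and MAL33 were the members whose call held without each array. Among the regulators of glucose signalling HXK2, the main hexokinase, stood at -0.57, -0.67 and -0.68. MIG3, a repressor, read -0.81, -1.27 and -0.51. RGT1, the repressor of hexose transporters, was at -0.54, -0.81 and -0.85. These fell. GLK1 (YCL040W), glucokinase, went the other way, at 1.78, 1.66 and 2.10 (3.6-fold, adjusted p = 2.62e-06). MTH1, a corepressor of the transporters, was at -1.80, -2.11 and 0.14, strongly negative on arrays 1 and 2 and near 0 on array 3 (adjusted p = 0.0256, but 0.157 without array 1 and 0.191 without array 2). HXK1, the other hexokinase, was at -0.98, -0.93 and 0.92 and did not pass (adjusted p = 0.396, but 0.00424 without array 3). Glycolysis and fermentation rose in 8 of 22 and fell in 1, by means of at most 1.02 (5, 5 and 9 higher without arrays 1, 2 and 3). GPM1, phosphoglycerate mutase, was at 0.78, 0.94 and 1.32 and rose.

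The zinc regulon fell in 9 of 12 members and rose in 1, with a median of -0.81. IZH1 (YDR492W) and IZH2 (YOL002C) are membrane proteins of the adiponectin receptor family that affect zinc. IZH1 gave -2.30, -2.53 and -2.08. IZH2 was at -1.80, -1.66 and -2.06. ZRT1 (YGL255W), the high-affinity zinc importer, stood at -1.46, -1.40 and -1.49. ZRT2, the low-affinity one, read -0.71, -0.68 and -0.32. ZRC1, which loads zinc into the vacuole, was at -0.68, -0.62 and -0.86. The arrays of each of these genes shared their sign. ZRG8 was the member that rose, at 0.85, 0.64 and 0.79. ZAP1, the factor that drives the regulon, was at -0.12, -0.43 and -0.27 and did not pass (adjusted p = 0.2).

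Amino acid permease genes fell in 12 of 21 and rose in 1, with a median of -0.63. AGP1 (YCL025C), a broad permease, gave -2.23, -1.94 and -1.50. BAP3, for branched-chain amino acids, was at -1.35, -1.63 and -1.59. GNP1, for glutamine, stood at -0.86, -1.03 and -1.73. DIP5, CAN1 and TAT1, which carry acidic, basic and aromatic or branched amino acids, had means of -1.14, -0.89 and -0.75 and fell too. MUP3, a low-affinity methionine permease, was at 0.72, 0.60 and 1.49 and rose. GAP1, the general permease, was at -0.23, 0.19 and -0.30 and did not pass (adjusted p = 0.636). Other transport genes were among the 25 lowest. FUR4, the uracil permease, read -1.65, -1.52 and -1.94. MEP2, an ammonium permease, was at -1.55, -1.33 and -1.88. TPO2, a polyamine exporter, gave -1.44, -1.49 and -1.79. MEP2 and TPO2 had close relatives that fell as well. MEP3 was at -0.88, -0.88 and -1.22. TPO3 stood at -1.26, -1.35 and -1.61. UGA1 and UGA2 are the enzymes that use gamma-aminobutyrate. UGA1 read 1.33, 1.09 and 1.53. UGA2 was at 1.81, 1.70 and 1.07. Both rose. UGA3, their activator, was at -0.88, -1.02 and -1.52 and fell.

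Lipid genes differed between pathways. OLE1 (YGL055W), the only fatty acid desaturase of yeast, had the lowest mean of the passing genes, at -2.51, -2.45 and -2.52 (5.63-fold lower, adjusted p = 5.91e-06). Its arrays nearly coincided. FAA4 and FAA3 are acyl-CoA synthetases. FAA4 gave -1.38, -1.46 and -1.15. FAA3 was at -1.04, -0.87 and -1.54. ELO3, which makes very long chains, stood at -1.08, -1.10 and -1.78. FAS2, a subunit of fatty acid synthase, read -0.76, -0.80 and -0.96. Of fatty acid synthesis 9 of 14 members fell. ACB1, the acyl-CoA binding protein, was at 0.64, 0.80 and 1.01 and rose. MGA2, an activator of OLE1, was at -0.71, -0.93 and -0.55 and fell (adjusted p = 0.00975, but 0.071 without array 2). Its relative SPT23 was at -0.22, 0.06 and -0.26 and did not pass. Ergosterol genes, for the sterol of yeast membranes, fell in 16 of 27 and rose in 1 (12, 12 and 9 lower without arrays 1, 2 and 3). ERG3 was at -1.06, -1.12 and -1.83. ERG11, the target of azole drugs, gave -0.90, -0.53 and -1.23. UPC2, the sterol-sensing activator, was at -1.07, -0.94 and -0.85. These fell. Phospholipid synthesis had 4 higher and 5 lower of 20, shares close to the 19.9% and 21.3% over all genes (4, 4 and 3 lower without arrays 1, 2 and 3). OPI3 (YJR073C), which makes phosphatidylcholine by methylation, stood at 2.13, 2.35 and 2.09. INO1, which makes inositol, read 1.35, 1.55 and 0.76. Both rose. ITR1, the inositol importer, was at -0.60, -0.39 and -0.91 and fell.

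The phosphate regulon, which scavenges phosphate, rose in 13 of 24 and fell in 3, with a median of 0.48. SPL2, a small inhibitor of low-affinity transport, was at 1.77, 1.86 and 1.87. PHO89, a sodium-coupled phosphate importer, gave 1.95, 1.23 and 2.26. PHO5, the secreted acid phosphatase, was at 1.38, 1.04 and 0.75. VTC1 and VTC4 make polyphosphate. VTC1 stood at 1.09, 0.90 and 0.88. VTC4 read 0.90, 0.83 and 0.61. PHO11 and PHO12 are near-identical phosphatases. PHO11 was at 1.53, 1.54 and 0.77. PHO12 gave 1.74, 1.58 and 0.99. All of these rose. The members that fell were a repressor and the low-affinity importers. PHO80, the cyclin that represses the regulon, was at -0.68, -0.78 and -0.50. PHO87, an importer, stood at -0.50, -0.68 and -0.40. PHO90, the other importer, read -0.40, -0.69 and -0.76. PHO84, the main high-affinity importer, was at 0.91, 0.51 and 0.22 and rose (adjusted p = 0.0192, but 0.163 without array 1 and 0.0686 without array 2).

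Iron and copper genes had 12 higher and 8 lower of 32 (37.5% and 25.0%, beside 19.9% and 21.3% over all genes). The lower share was thus near that over all genes. Without arrays 1, 2 and 3 the list had 7, 5 and 5 lower. The cell wall mannoproteins that retain iron carriers rose. FIT2 (YOR382W) was at 3.34, 2.54 and 2.49. FIT1 gave 1.00, 0.92 and 1.15. FIT3 was at 1.42, 0.88 and 0.88. ENB1, an importer of an iron carrier, stood at 1.51, 1.17 and 0.66. HMX1, heme oxygenase, read 1.10, 0.90 and 1.00. CUP1-1, a metallothionein, was at 1.14, 1.07 and 1.34. CUP1-2, its near-identical copy, gave 1.36, 1.00 and 1.37. These rose as well. FRE1 and FRE7 are reductases of the cell surface. FRE1 was at -0.48, -0.95 and -1.78. FRE7 stood at -1.30, -1.31 and -2.07. FET4, a low-affinity metal importer, read -1.09, -1.21 and -0.80. These fell.

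Sulfur and methionine genes had 10 higher and 8 lower of 35, near the 19.9% and 21.3% over all genes, with a median of -0.03 (4, 3 and 3 lower without arrays 1, 2 and 3). MET17 (YLR303W), which fixes sulfide into homocysteine, was at 3.07, 2.80 and 2.26 (6.54-fold, adjusted p = 1.45e-06). MET6, methionine synthase, was at 1.62, 1.24 and 0.94 and rose. HOM3, which starts the supply of homoserine, was at -0.67, -0.98 and -1.30 and fell. In the breakdown of aromatic amino acids, ARO9 (YHR137W), an aminotransferase, was at 2.72, 2.87 and 2.08. ARO10 (YDR380W), a decarboxylase, gave 2.06, 2.11 and 1.24. Both rose. Their activator ARO80 was at 0.87, 0.33 and 0.65 and rose (adjusted p = 0.00953, but 0.0816 without array 1). ATF2, an alcohol acetyltransferase, was at -1.39, -1.18 and -1.24 and fell. Other amino acid synthesis had 7 higher and 13 lower of 53 (13.2% and 24.5%, beside 19.9% and 21.3% over all genes). The lower share was near that over all genes. Without arrays 1, 2 and 3 the list had 4, 3 and 6 higher and 10, 10 and 7 lower. LYS1, the last enzyme of lysine synthesis, was at 1.21, 1.13 and 1.18 and rose. LEU9, of leucine synthesis, was at -0.90, -0.97 and -1.34. ILV3, of branched-chain synthesis, stood at -0.83, -1.04 and -1.06. Both fell.

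Genes of 60S ribosome assembly fell in part. Of the 60S assembly list 23 of 57 fell (40.4%, against 21.3% over all genes) and 0 rose, with a median of -0.41. Of the small subunit processome 13 of 49 fell, a share of 26.5% near that over all genes, and 0 rose. Its median was -0.34. Array 3 carried much of these counts. Without arrays 1, 2 and 3, 19, 14 and 9 members of the 60S list and 11, 9 and 4 of the processome fell. Over all genes 748 of 5305, 738 of 5354 and 714 of 5310 were then lower. The medians on the 3 arrays were -0.28, -0.36 and -0.56 for 60S assembly and -0.23, -0.28 and -0.55 for the processome. DBP2, an RNA helicase, read -1.42, -1.38 and -1.62. SPB4, another helicase, was at -0.85, -0.93 and -0.93. NMD3, an export adaptor of the large subunit, gave -0.57, -0.75 and -1.03. NOP58 and NOP56 are core proteins of guide RNA particles. NOP58 was at -0.66, -0.84 and -0.88. NOP56 stood at -0.56, -0.53 and -1.19. These fell with each array left out. Ribosomal protein genes did not fall as a set: in the cytosolic ribosome 25 of 123 rose and 7 fell, shares of 20.3% and 5.69% beside 19.9% and 21.3% over all genes, with a median of 0.15 (20, 12 and 10 higher without arrays 1, 2 and 3). RPL31A was at 0.64, 0.63 and 1.05 and rose. RPL4A and RPL4B are near-identical copies. RPL4A read -0.70, -0.58 and -0.78. RPL4B was at -0.60, -0.89 and -0.79. Both fell. In the mitochondrial ribosome 7 rose and 6 fell of 72 (2, 5 and 1 higher and 3, 3 and 4 lower without arrays 1, 2 and 3).

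The G1 and mitotic genes that passed were lower. CLN2 (YPL256C) and CLN1 (YMR199W) are the G1 cyclins that commit the cell to division. CLN2 gave -1.80, -1.76 and -1.81. CLN1 was at -1.67, -1.49 and -1.99. They were 3.46-fold and 3.29-fold lower (adjusted p = 3.17e-06 and 1.23e-05). CLN3, which acts before them, stood at -0.71, -1.17 and -0.82. NRM1, a repressor of G1 genes, read -0.72, -0.99 and -1.23. CLB6, an S phase cyclin, was at -0.42, -0.48 and -2.06, far lower on array 3 (adjusted p = 0.0363, but 0.2 without array 3). Of the G1 list 7 of 15 fell and 0 rose (6, 6 and 4 lower without arrays 1, 2 and 3). Among mitotic genes 9 of 20 fell and 0 rose. The mitotic cyclins were among them. CLB1 was at -1.74, -1.58 and -1.94. CLB2 gave -0.83, -0.66 and -1.49. CLB3 was at -0.50, -0.71 and -0.70. CLB4 stood at -0.90, -0.88 and -1.20. CDC28, the kinase these cyclins bind, was at -0.02, -0.20 and 0.16 and did not pass (adjusted p = 0.909).

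Genes expressed as daughter cells separate fell in 7 of 14 and rose in 1. DSE2 and SCW11 are glucanase-like proteins of the wall that act in separation. DSE2 read -1.62, -1.75 and -1.26. SCW11 was at -1.04, -1.20 and -1.33. CTS1, the chitinase that splits mother from daughter, gave -1.00, -0.89 and -0.80. AMN1, which opposes mitotic exit, was at -1.18, -1.20 and -1.08. These fell. HO (YDL227C), whose product cuts DNA to switch mating type, gave -2.31, -2.21 and -2.80, the second lowest mean (5.42-fold lower, adjusted p = 1.85e-05). SAG1 and STE3 are the agglutinin and pheromone receptor of alpha cells. SAG1 stood at -1.08, -1.00 and -1.06. STE3 read -0.81, -0.97 and -0.69. Both fell. Histone genes fell in 5 of 9 and rose in 0, but without arrays 1, 2 and 3 the number was 2, 1 and 5, and each core histone has a near-identical copy. HTZ1, the variant H2A, was at -0.45, -0.77 and -0.76 and fell without any 1 array.

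The remaining lists are given in brief, beside 19.9% higher and 21.3% lower over all genes. Cell wall mannoproteins had 7 higher and 10 lower of 28 (25.0% and 35.7%). PST1, a wall protein raised by damage to the wall, was at 1.13, 1.03 and 1.07 and rose. TIR1, a cold-induced mannoprotein, was at -1.11, -1.22 and -0.77 and fell. Of 14 eisosome genes 7 rose and 2 fell (50.0% and 14.3%), with 1, 4 and 5 higher without arrays 1, 2 and 3. LSP1, a core component, was at 0.66, 0.67 and 1.10 and rose. Nuclear genes of respiration had 8 higher and 5 lower of 49, a lower share than over all genes in both directions (6, 7 and 9 higher and 2, 3 and 2 lower without arrays 1, 2 and 3). COX5B, the subunit used at low oxygen, was at 1.14, 1.49 and 1.11 and rose. HAP4, the activator of respiration, was at -1.19, -1.15 and 0.22 and did not pass (adjusted p = 0.0707, but 0.0132 without array 3). CIT2, peroxisomal citrate synthase and a reporter of the retrograde pathway, was at -2.03, -1.89 and -1.38 and fell. PYC1, pyruvate carboxylase, was at 1.18, 1.19 and 1.30 and rose. Purine synthesis had 1 higher and 6 lower of 22 (4.55% and 27.3%), with 4, 2 and 2 lower without arrays 1, 2 and 3. Drug efflux leaned to lower values, with 1 higher and 8 lower of 18 (5.56% and 44.4%) and a median of -0.36. Without arrays 1, 2 and 3 it had 4, 5 and 4 lower. Genes of RNA polymerases I and III, translation factors and aminoacyl-tRNA synthetases had medians of -0.05, -0.08 and -0.11. Among the 25 highest means were also MSC1 (2.00), NQM1, a transaldolase (1.92), GID11, which recruits substrates to a ubiquitin ligase (1.88), and STF1, an inhibitor of the ATP synthase (1.86). Among the 25 lowest were also INA1 (-1.98), the wall glucanase SCW10 (-1.88), ALT2 (-1.70), SUR1, of sphingolipid synthesis (-1.60), MRH1 (-1.50) and KNH1 (-1.49). Their arrays shared the sign.

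**Figure D4:**
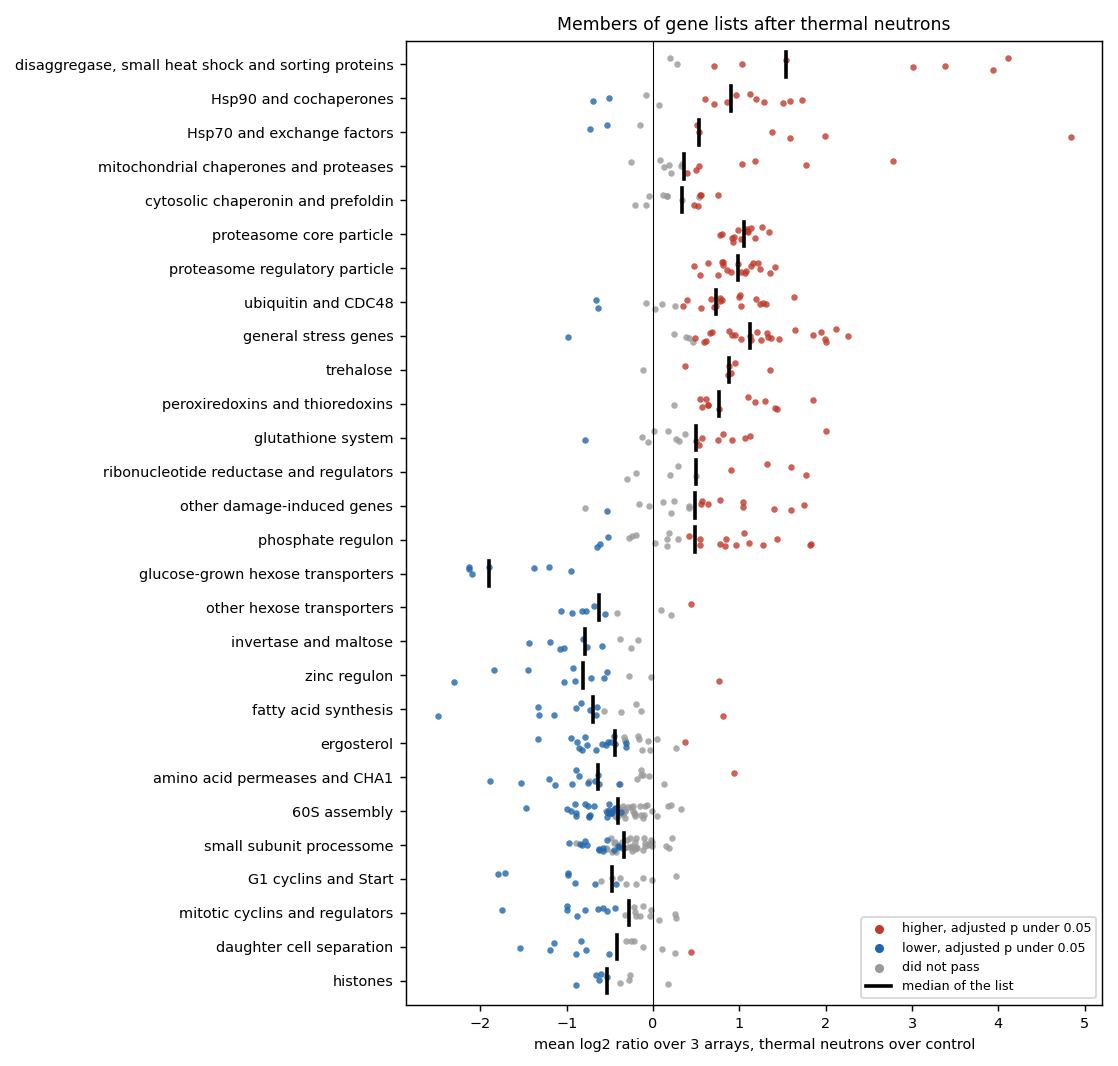
Mean log2 ratio over the 3 arrays (horizontal axis, thermal neutrons over control) of each tested member of 28 gene lists, 1 point per gene, coloured by the limma call, with a black bar at the list's median. The medians of the proteasome and general stress lists lie to the right of 0, those of the hexose transporters and the zinc regulon to the left.

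The same genes were then set against gamma rays, whose arrays are in the same table and of whose 4891 tested genes 42.2% passed. Of 4843 genes with values in both groups, 1924 differed (39.7%), 1026 higher (21.2%) and 898 lower (18.5%) after thermal neutrons. The means of the groups correlated across genes with r = 0.05, a description over genes that are not independent replicates. Chaperone and sugar genes were among the largest differences. SSA4 was at 4.87, 4.98 and 4.67 after thermal neutrons and at 0.18, 0.00 and 0.10 after gamma rays, a difference of 4.75 (SE 0.16, adjusted p = 2.93e-09). HSC82 was at 1.28, 1.05 and 1.04 after thermal neutrons and at -1.41, -1.45 and -1.58 after gamma rays, a difference of 2.60 (adjusted p = 5.14e-07). AHA1 was at 1.44, 1.23 and 0.92 after thermal neutrons and at -1.84, -1.47 and -1.86 after gamma rays, a difference of 2.92 (adjusted p = 5.37e-07). For these genes no thermal neutron array overlapped a gamma ray array. They were chosen with their differences known, so this is no separate result. Of the Hsp90 list 11 of 13 members were higher after thermal neutrons than after gamma rays and 0 lower. Its medians were 0.91 over 14 genes after thermal neutrons and -0.99 over 13 genes after gamma rays. The core particle of the proteasome was higher in 14 of 14 (medians 1.05 after thermal neutrons and -0.50 after gamma rays) and the regulatory particle in 19 of 19 (medians 0.99 after thermal neutrons and -0.37 after gamma rays). With 1 array of either group left out, 10 to 11 Hsp90 members, all core members and 18 to 19 regulatory members passed.

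Genes of sugar and lactate uptake or use stood on opposite sides. HXT2 was at -2.26, -2.75 and -1.40 after thermal neutrons and at 1.77, 2.54 and 2.67 after gamma rays (difference -4.46, SE 0.48, adjusted p = 2.81e-05). SUC2 was at -1.05, -1.25 and -1.28 after thermal neutrons and at 2.47, 3.16 and 3.24 after gamma rays (difference -4.15, SE 0.24, adjusted p = 4.54e-07). JEN1, the lactate importer, was at -0.70, -0.70 and -0.43 after thermal neutrons and at 2.89, 2.93 and 3.72 after gamma rays (difference -3.79, adjusted p = 5.14e-07). Its fall against control after thermal neutrons did not hold throughout. The limma adjusted p was 0.0861 without array 1, 0.0851 without array 2 and 0.0513 in high-power scans alone. The arrays of the groups did not overlap in any of these 3 genes, which were also chosen with their differences known. All 7 glucose-grown transporters, all 10 other hexose transporters and all 10 invertase and maltose genes were lower after thermal neutrons than after gamma rays, against a background of 18.5%. Their medians were -1.90, -0.62 and -0.79 after thermal neutrons, and 1.99, 1.42 and 1.36 after gamma rays. With 1 array left out the glucose-grown transporters all passed, as did 8 to 10 of the other transporters and 8 to 9 of the invertase and maltose genes. Genes for gluconeogenesis and nonfermentable carbon were lower in 15 of 18 (13 to 14 with 1 array left out). Their medians were -0.19 over 19 genes after thermal neutrons and 1.03 over 18 genes after gamma rays. The zinc regulon was lower in 8 of 12 (5 to 8 with 1 array left out, the fewest without gamma ray array 2). In it, ZRT1 was at -1.46, -1.40 and -1.49 after thermal neutrons and 1.16, 1.02 and 1.34 after gamma rays. The damage gene RNR4, by contrast, was at 1.77, 1.71 and 1.84 after thermal neutrons and 1.52, 1.44 and 1.17 after gamma rays, and the difference of 0.40 (SE 0.17) did not pass (adjusted p = 0.0792, but 0.0491 with array weights). RNR1 was at 0.06, 0.22 and -0.88 after thermal neutrons and at -1.84, -1.89 and -1.76 after gamma rays, a difference of 1.63 (adjusted p = 0.00132).

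Fewer genes separated thermal neutrons from carbon ions, which were given in minutes rather than hours. Of 5033 genes, 542 differed (10.8%), 306 higher (6.08%) and 236 lower (4.69%), and the group means correlated across genes with r = 0.51. This count depended on single arrays: it was 226, 219 and 459 without thermal neutron arrays 1, 2 and 3, and 224, 267 and 635 without carbon ion arrays 1, 2 and 3. SSA4 was at 4.87, 4.98 and 4.67 after thermal neutrons and at 0.55, 0.80 and 0.71 after carbon ions (difference 4.15, SE 0.16, adjusted p = 3.79e-08). BTN2 was at 3.84, 3.49 and 2.82 after thermal neutrons and at 0.38, 0.38 and -0.59 after carbon ions (difference 3.32, SE 0.31, adjusted p = 0.000114). SIS1 was at 2.17, 2.19 and 1.89 after thermal neutrons and at -0.22, -0.13 and 0.25 after carbon ions (difference 2.11, SE 0.20, adjusted p = 0.000114). The arrays of these genes, again chosen with their differences known, did not overlap between the groups. Most lists kept fewer members past the threshold once an array was left out. The Hsp90 list was higher after thermal neutrons in 7 of 14 (medians 0.91 after thermal neutrons and 0.09 after carbon ions, and 6 to 7 members with 1 array left out), the core particle in 8 of 14 and the regulatory particle in 13 of 19. The core particle had medians of 1.05 after thermal neutrons and 0.27 after carbon ions, and the count was 3, 5 and 7 without thermal neutron arrays 1, 2 and 3 and 3, 6 and 11 without carbon ion arrays 1, 2 and 3. The regulatory particle had medians of 0.99 after thermal neutrons and 0.21 after carbon ions, and the count was 3, 5 and 8 without thermal neutron arrays 1, 2 and 3 and 5, 6 and 12 without carbon ion arrays 1, 2 and 3. Phosphate genes were higher in 14 of 23, with medians of 0.48 over 24 genes after thermal neutrons and -0.16 over 23 genes after carbon ions. The count was 6, 8 and 13 without thermal neutron arrays 1, 2 and 3 and 7, 9 and 14 without carbon ion arrays 1, 2 and 3.

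All 7 glucose-grown hexose transporters were lower after thermal neutrons than after carbon ions, also with any 1 array left out, and their medians were -1.90 after thermal neutrons and 0.78 after carbon ions. HXT4 was at -2.30, -2.56 and -1.54 after thermal neutrons and at 1.17, 1.32 and -0.15 after carbon ions (difference -2.91, SE 0.35, adjusted p = 0.000671). OLE1 was at -2.51, -2.45 and -2.52 after thermal neutrons and at 0.16, 0.07 and -0.99 after carbon ions (difference -2.24, SE 0.27, adjusted p = 0.000564). The zinc regulon was lower in 6 of 12 and higher in 1 (medians -0.81 after thermal neutrons and -0.17 after carbon ions), and the number lower was 5, 4 and 5 without thermal neutron arrays 1, 2 and 3 and 4, 4 and 6 without carbon ion arrays 1, 2 and 3. General stress genes had 24 of 29 higher after thermal neutrons and 25 of 27 after carbon ions, where 10.1% of all genes were higher than control. Their medians were 1.12 after thermal neutrons and 0.88 after carbon ions, and the difference passed in 3 higher and 3 lower of 27. HSP12 was at 1.86, 2.15 and 1.53 after thermal neutrons and at 1.62, 2.27 and 2.06 after carbon ions, with overlapping arrays (difference -0.14, SE 0.22, adjusted p = 0.734). Of the damage genes, RNR4 was lower after thermal neutrons, at 1.77, 1.71 and 1.84 against 2.61, 2.91 and 2.57 after carbon ions (difference -0.92, SE 0.17, adjusted p = 0.00636). CLN2 was at -1.80, -1.76 and -1.81 after thermal neutrons and -2.09, -1.79 and -1.81 after carbon ions, and the difference of 0.10 (SE 0.18) did not pass (adjusted p = 0.746). Daughter separation genes, of which 7 of 14 were lower than control after thermal neutrons and 10 of 14 after carbon ions, were higher after thermal neutrons than after carbon ions in 6 of 14, with medians of -0.42 after thermal neutrons and -1.37 after carbon ions. The count was 3, 4 and 4 without thermal neutron arrays 1, 2 and 3 and 4, 3 and 5 without carbon ion arrays 1, 2 and 3.

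**Figure D5:**
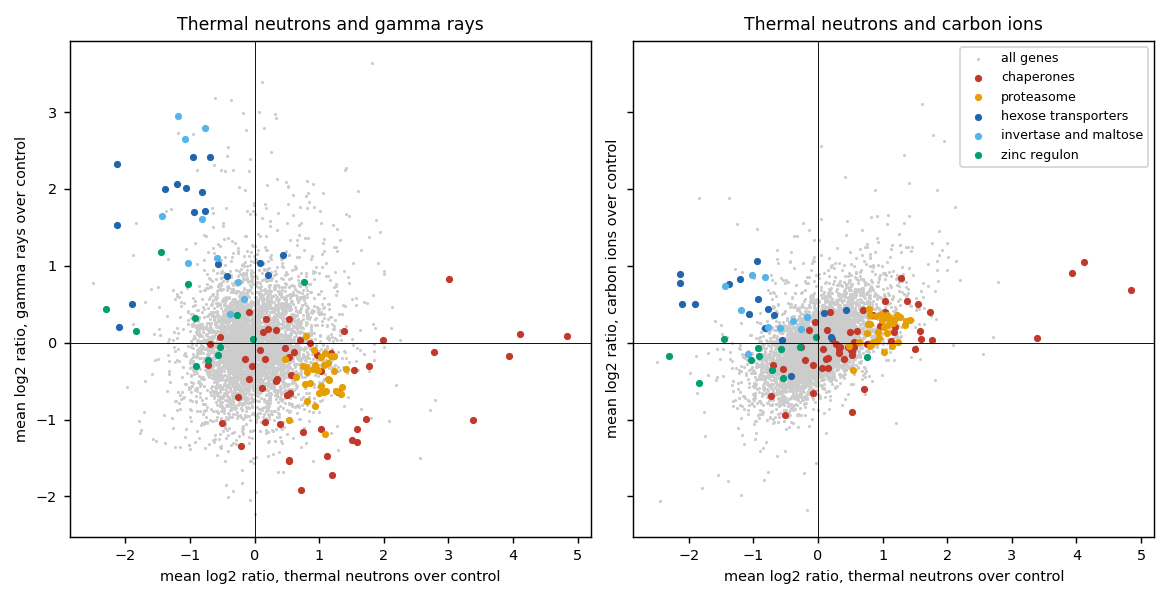
Mean log2 ratio over 3 arrays of each gene after thermal neutrons (horizontal axes) against that after gamma rays (left panel) or carbon ions (right panel), with members of 5 sets of lists in colour. Most chaperone genes and the proteasome genes lie to the right of 0 in both panels. Most hexose transporters lie to the left, above 0 for most after gamma rays and carbon ions.

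Fast neutrons were measured on another array type and normalised in their own table, so their values stand beside those of thermal neutrons with no test. SSA4 averaged 4.84 ± 0.16 after thermal neutrons and -0.68 ± 0.37 after fast neutrons (SD, n = 3 each). HSP104 averaged 3.94 ± 0.42 after thermal neutrons and 0.00 ± 0.35 after fast neutrons. BTN2 averaged 3.38 ± 0.52 after thermal neutrons and -0.58 ± 0.12 after fast neutrons. The core particle had a median of 1.05 after thermal neutrons and 0.47 after fast neutrons over 14 genes. The Hsp90 list had a median of 0.91 after thermal neutrons and -0.03 after fast neutrons over 14. HXT2 averaged -2.14 ± 0.69 after thermal neutrons and -0.15 ± 0.09 after fast neutrons. HXT1 averaged -2.10 ± 0.38 after thermal neutrons and 0.15 ± 0.35 after fast neutrons. OLE1 averaged -2.49 ± 0.04 after thermal neutrons and -0.44 ± 0.21 after fast neutrons. Some genes shared their sign. CLN2 averaged -1.79 ± 0.03 after thermal neutrons and -0.79 ± 0.24 after fast neutrons. RNR4 averaged 1.77 ± 0.07 after thermal neutrons and 2.55 ± 0.26 after fast neutrons. OPI3 averaged 2.19 ± 0.14 after thermal neutrons and 1.08 ± 0.27 after fast neutrons. General stress genes had medians of 1.12 over 29 genes after thermal neutrons and 0.65 over 25 genes after fast neutrons. The glucose-grown transporters had medians of -1.90 after thermal neutrons and 0.15 after fast neutrons over 7.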

How the data were processed

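The deposited values are log2 ratios of 2-colour cDNA arrays. Per the labels, the authors kept spots with a flag value of 0, normalised each array by LOWESS and scanned the arrays other than the gamma ray ones at a high and a low laser power; software versions and channel intensities are not given in the sources used here, so signal over background is unknown. Per the file values, the 49 spots of ACT1 hold the same value within each array. Of 6912 probes, 5446 had 1 gene symbol in the platform annotation. The other 1466 had none or more than 1, which were not counted apart, and are not analysed here.

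For each array the high and low scans were averaged per probe, and then the probes of a gene, so that each array is 1 replicate. Genes with a value on the 3 arrays of a group were fitted with limma 3.58.1 (R 4.3.3; lmFit and eBayes) on the 9 arrays of the first table (thermal neutrons, gamma rays, carbon ions). Each group's mean was tested against 0, and differences between groups came from the same kind of fit over genes measured in both. Tests were two-sided, with Benjamini-Hochberg adjustment over all genes tested and a threshold of 0.05; fold changes carry no filter on size. The fit was tested on simulated data. Fast neutrons, in a second table on another array type, were averaged only.

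The text names the 25 highest and 25 lowest means with a shared sign, most of the 10 largest differences in each direction, and members of 68 gene lists. The group and the lists were chosen with earlier results of these data known. Alternatives covered the scans, the samples in the fit, scaling, filters, array weights, the summary over probes, left-out arrays and the replicate number as a block. Promoter sequences were not analysed here.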

Additional observations from a re-analysis of the deposited data

Results flagged for a closer look

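After thermal neutrons and after gamma rays, 30 genes passed in opposite directions, at least 2-fold in each group, and their difference passed in the fit of both groups. The values that follow are log2 differences, thermal neutrons minus gamma rays, so a negative value means lower after thermal neutrons. No explanation was tested for any of them.

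Of these, 17 were lower after thermal neutrons and higher after gamma rays. The largest group was sugar uptake and use. It held the hexose transporter genes HXT2 (-4.46), HXT4 (-3.67), HXT6 (-3.38), HXT7 (-3.27) and HXT17 (-3.08), the invertase SUC2 (-4.15) and the maltose genes MAL32 (-3.73), MAL31 (-3.08) and MAL33 (-2.06). HXT6 and HXT7 are near-identical and may share signal, and MAL32 has a near-identical copy in MAL12. Other transport genes were the amino acid permease AGP1 (-3.02), the zinc importer ZRT1 (-2.63) and the sulfite exporter SSU1 (-2.28). The regulators were the zinc cluster factor ZNF1 (-3.91), the GATA factor GAT2 (-2.43) and the stress kinase RCK1 (-3.09). The remaining 2 genes, YKR075C (-3.40) and MPF1 (-3.03), were near 0 on thermal neutron array 3, at 0.15 and -0.11, and neither passed after thermal neutrons without array 1 or 2. Without array 1, ZNF1 and GAT2 after thermal neutrons had means of -0.89 and -0.97 (adjusted p = 0.074 and 0.0513), past neither condition. MAL31 did not pass without array 1 or 2, nor MAL32 without array 2.

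The other 13 were higher after thermal neutrons and lower after gamma rays. Chaperone genes made up most of them, namely BTN2 (4.39), SIS1 (3.11), AHA1 (2.92), HSP82 (2.87), CPR6 (2.77), FES1 (2.72), HSC82 (2.60) and HSP10 (2.15). Protein degradation was represented by the core particle subunit PUP2 (2.27) and by CUZ1 (2.37), which binds the proteasome. Metabolic genes were ARO9 (4.05) and MET6 (2.36), and ANK1 (2.68) was the last. GAT2, SSU1 and ANK1 belong to no list and were named after their values were seen.

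Against carbon ions, 3 genes met the same conditions, all lower after thermal neutrons and higher after carbon ions. They were YKR075C (-3.72), RCK1 (-3.25) and MTH1 (-2.80), as log2 differences of thermal neutrons minus carbon ions. MTH1 and YKR075C were near 0 on thermal neutron array 3. Neither passed after thermal neutrons without array 1 or 2, and the difference of YKR075C did not pass then either.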

How the results depend on the processing

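No tested value of a named gene or difference changed sign past the threshold under any alternative that was run. The number of genes called after thermal neutrons was 2185 and ranged over the alternatives with all arrays from 1843 (low-power scans alone) to 2852 (array weights). With 1 array left out it ranged from 1455 (without array 3) to 1497, with fewer samples in the fit. Centring each array on its median turned the balance to 1127 higher and 1002 lower. The difference from gamma rays kept 1598 to 2528 genes with all arrays and 1581 to 1862 with 1 array left out. The difference from carbon ions, 542 genes, became 1555 with array weights and ranged from 219 to 635 with 1 array left out. The cause was not tested.

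Of 274 named genes 259 passed, and 232 of these passed under every alternative in which they had a value. Leaving out arrays 1, 2 and 3 took away 18, 18 and 11 calls, and the other alternatives at most 6 each. MSN2 was lost under 6 of these others. Array weights added 7 calls, among them GAC1, GLG1, HAP4, HXK1 and RNR3, whose sign on array 3 was opposite to that on arrays 1 and 2. HAP4 also passed in low-power scans alone, with only thermal neutrons in the fit and with both scans required (adjusted p = 0.0467, 0.0444 and 0.0397). Of 42 named differences between radiations that passed, 41 did so under every alternative in which they had a value; YKR075C against carbon ions had adjusted p between 0.0656 and 0.079 without thermal neutron array 1 or 2 or carbon ion array 1 or 2. The difference of RNR4 from gamma rays passed with array weights. The replicate number as a block gave 2061, 1881 and 423 genes for the 3 comparisons. The numbers were not taken to pair the arrays, since residuals of same-numbered arrays correlated with r between -0.0033 and 0.0629 against gamma rays and between -0.2628 and -0.002 against carbon ions.

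Some values rest on 1 scan of an array, as those of 5 of the 7 glucose-grown hexose transporters do on at least 1 array. Channel intensities were not used here, so signal over background is unknown, and 3 arrays limit the precision.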

Other observations

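Fatty acid oxidation fell in 7 of 19 members and rose in 1, with a median of -0.23, beside 21.3% lower over all genes. DCI1, a peroxisomal isomerase homologue, was at -1.46, -1.11 and -1.03, and the activator of this and other nonfermentable pathways, ADR1, at -0.94, -1.10 and -0.66. The other lists given here had shares of higher and lower genes nearer to those of all genes, 19.9% and 21.3%, or few members. Gluconeogenesis and nonfermentable carbon had 3 higher and 6 lower of 19 (2, 1 and 1 higher and 4, 3 and 5 lower without arrays 1, 2 and 3). GUT2, which oxidises glycerol phosphate, was at 0.69, 0.63 and 1.18 and rose. Of the genes on mitochondrial DNA that were tested, 2 of 5 fell. ATP6, a subunit of the ATP synthase, was at -0.80, -0.94 and -1.22.

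Cell wall integrity signalling had 3 higher and 5 lower of 18 (2, 3 and 4 lower without arrays 1, 2 and 3). SLT2, the kinase at the end of that pathway, was at 0.61, 0.60 and 1.38, highest on array 3, and rose, and so did GFA1, which starts chitin synthesis, at 0.77, 0.71 and 0.88. WSC2, a surface sensor, was at -0.64, -0.94 and -0.83 and fell. Meiosis genes had 3 higher and 6 lower of 23 (1, 0 and 1 higher without arrays 1, 2 and 3). SPS1, a kinase of spore formation, was at -0.89, -1.47 and -1.65 and fell. In NAD salvage, NMA2, which makes the dinucleotide, was at 1.06, 0.61 and 0.72 and rose beside PNC1, and TNA1, the nicotinic acid importer, was at -0.53, -0.97 and -0.91 and fell.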
